A study of Mus musculus with 6 samples.

Results

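Cytochrome P450 genes, named Cyp with a family number and a subfamily letter, and carboxylesterase genes, named Ces with a family number, were taken from every named non-control probe of 6 one-colour Agilent mouse arrays. The rule used the gene names alone and no measured value. It found 104 genes among 36163 names on the arrays, of which 85 were P450 genes and 19 were carboxylesterases. Where a gene had several probes, as 22 of the 104 did, it was read from the probe with the highest mean signal, and the genes had 131 probes in all. RNA came from whole hearts of male C57BL/6 mice. The 3 tail-suspension mice had hung by the tail for 28 days from an age of 10 weeks, with the hind limbs off the floor, which serves as a model of weightlessness, and the 3 sham mice were kept alike without suspension. The labels also give every mouse an age of 11 weeks, although a start at 10 weeks and a suspension of 28 days give a higher age, so the age at which the hearts were taken is uncertain. No agent, transgene or allele was named for either group, and each array was 1 mouse.

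P450 enzymes are heme proteins that insert oxygen into drugs, fatty acids, sterols, steroid hormones, retinoic acid and vitamin D. Those in the endoplasmic reticulum receive electrons from P450 oxidoreductase, and many of their genes are induced by receptors that sense the enzymes' own substrates, such as the aryl hydrocarbon receptor for the CYP1 family and the constitutive androstane receptor for Cyp2b10. Carboxylesterases cut ester bonds of drugs and of stored lipids. Both families are best known from the liver, while in the heart the CYP2J, CYP2C and CYP4 enzymes are studied as makers of epoxides and hydroxy acids from arachidonic acid.

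Compared with sham, tail-suspended mouse hearts had higher signals for 11 P450 genes and lower signals for 2 carboxylesterases among 41 genes tested. By the chosen probes, no P450 gene was lower and no carboxylesterase higher, and Cyp21a1, counted among the 11, had a second probe that was lower. Called genes were those past the threshold used throughout, a Benjamini-Hochberg adjusted p under 0.05 in limma. The shares were 26.8% of the tested genes higher and 4.88% lower, beside 10.8% and 9.57% of all 28030 probes tested on the arrays. The largest rises among called genes were those of Cyp2b10, at 4.78-fold, and Cyp1b1, at 4.74-fold. The falls were those of Ces2c and Ces2e, which entered the test through their sham arrays only. Probe sequences of these 4 genes are shown because they define what was measured. Each line gives the first 30 of 60 bases, 5′ to 3′, in lower case throughout, with the position of the probe in mm9 coordinates as the array files give it. Which part of the transcript a probe covers was not determined here.
Cyp2b10 probe (chr7:26711522-26711581, plus strand): cacttatcagctctccatgatctgggatct
Cyp1b1 probe (chr17:80106547-80106606, minus strand): actacattaagcagatagatcaccatgtat
Ces2c probe (chr8:107378105-107378164, plus strand): actctgccccagaagatccaggagctaaag
Ces2e probe (chr8:107458508-107458567, plus strand): atgtatggaagtgacttcttgcctttcata

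Only the chosen probe of each gene was compared. The longest run of bases that the chosen probe of a called gene shared with that of another gene of the 104 was 15 bases, between Ces2c and Ces2a. The longest runs of all joined chosen probes of genes that did not pass the threshold, namely 34 bases between Cyp4a10 and Cyp4a31 and 25 bases between Cyp2c67 and Cyp2c68. Transcript sequences, of these genes or of others, were not compared with the probes, so binding to another transcript was not checked.

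Sequence before the start of the genes was read from RefSeq windows on GRCm38.p6, which matched 79 of the 104 genes in 90 windows and 9 of the 13 called genes in 9 windows. Each window held 250 bases before the start and 50 after it, and only the 250 bases before the start were searched. Both strands were searched for the core of the aryl hydrocarbon receptor element, GCGTG, because that receptor is the known inducer of the CYP1 genes. The core was found in 3 of the 9 windows of called genes, in 11 of the 34 windows of tested genes, in 14 of the 90 windows of all matched genes, and in 28.2% of all 32851 windows in the table, so its share among called genes was near that among tested genes and among all windows. The 3 windows with a match belonged to Cyp1b1, Cyp2b10 and Cyp20a1. For 4 called genes, Cyp2d12, Cyp2d22, Cyp4f17 and Cyp21a1, the table held no window. These windows, and those of both carboxylesterases that fell, which hold no match, are shown as the 250 bases before the start, 5′ to 3′ in the direction of the gene, in GRCm38.p6 coordinates. Capitals mark GCGTG or its reverse complement CACGC.
Cyp1b1 (chr17:79715062-79715311, minus strand): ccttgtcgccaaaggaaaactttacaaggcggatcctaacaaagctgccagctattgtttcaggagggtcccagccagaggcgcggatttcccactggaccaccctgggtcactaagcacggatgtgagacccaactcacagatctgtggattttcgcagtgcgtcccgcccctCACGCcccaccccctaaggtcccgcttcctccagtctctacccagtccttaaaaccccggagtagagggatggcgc
Cyp2b10 (chr7:25897408-25897657, plus strand): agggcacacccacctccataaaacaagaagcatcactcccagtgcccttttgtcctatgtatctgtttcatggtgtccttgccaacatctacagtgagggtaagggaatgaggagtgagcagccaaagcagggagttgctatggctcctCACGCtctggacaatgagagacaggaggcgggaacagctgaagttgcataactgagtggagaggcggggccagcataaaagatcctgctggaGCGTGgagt
Cyp20a1 (chr1:60343050-60343299, plus strand): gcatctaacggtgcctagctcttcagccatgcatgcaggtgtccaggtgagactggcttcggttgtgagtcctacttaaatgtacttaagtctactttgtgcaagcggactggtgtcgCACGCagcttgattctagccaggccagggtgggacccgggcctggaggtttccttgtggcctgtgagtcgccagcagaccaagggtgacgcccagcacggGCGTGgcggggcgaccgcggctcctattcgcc
Ces2c (chr8:104846818-104847067, plus strand): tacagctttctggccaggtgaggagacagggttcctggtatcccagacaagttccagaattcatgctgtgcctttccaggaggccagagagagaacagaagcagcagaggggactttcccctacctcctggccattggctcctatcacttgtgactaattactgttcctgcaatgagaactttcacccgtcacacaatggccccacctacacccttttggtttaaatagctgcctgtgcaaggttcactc
Ces2e (chr8:104926010-104926259, plus strand): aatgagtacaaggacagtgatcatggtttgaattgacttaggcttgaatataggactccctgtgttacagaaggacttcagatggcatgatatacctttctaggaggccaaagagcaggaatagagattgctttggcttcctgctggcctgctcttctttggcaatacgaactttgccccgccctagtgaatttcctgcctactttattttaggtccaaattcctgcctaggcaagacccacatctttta

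The match of Cyp1b1 began 76 bases before the start, those of Cyp2b10 101 and 9 bases before it, and those of Cyp20a1 132 and 32 bases before it. Of 3 further motifs searched on both strands, the E-box CACGTG was in none of the 9 windows of called genes and in 6.02% of all windows, the D-box TTATGTAA in none of the 9 and in 0.819% of all, and the direct repeat DR1 of nuclear receptors in none of the 9 and in 0.0335% of all. A match is a description of the letters only, and CACGTG and GCGTG can overlap. Binding was not measured here.

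Values are given as relative intensity, the processed intensity of the probe divided by the 75th percentile of its array, and differences as log2 fold changes of tail-suspension over sham. Levels of different probes cannot be compared with each other. Of the 104 genes, 41 had a probe well above background on all 3 arrays of at least 1 group and were tested, and 36 had one on all 6 arrays. By the chosen probe, a further 54 were well above background on no array, and 9 on some arrays of a group but not all. Among the 54, Cyp3a11 alone had another probe well above background, on 1 array. The number of arrays limits the precision. Of the 41, 19 had an unadjusted p under 0.05 in limma and 13 passed the adjusted threshold. The median log2 fold change of the 41 genes was 0.15, beside -0.00485 for all tested probes, and the median size of the change was 0.405, beside 0.236. All 3 tail-suspension arrays lay above all 3 sham arrays in 15 of the 41 genes, where 22.1% of all tested probes did so, and below them in 4, where 21.9% of all tested probes did so. With 3 arrays against 3, an exact two-sided permutation test of a single gene cannot give a p below 0.1.

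**Figure D1:**
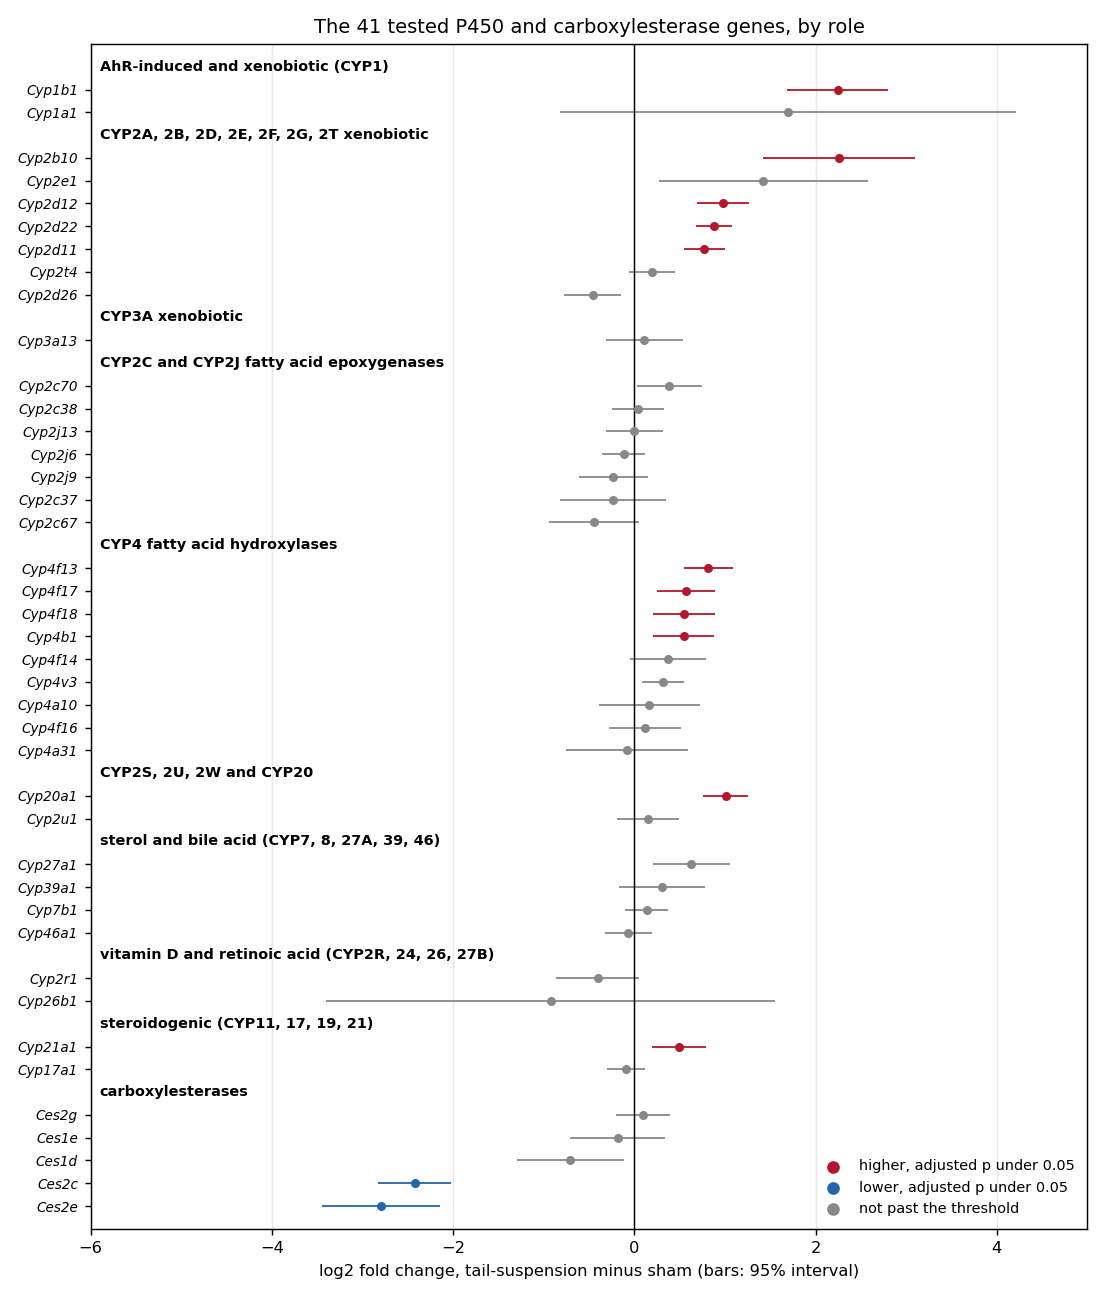
Log2 fold change of the 41 tested P450 and carboxylesterase genes, tail-suspension minus sham, with 95% intervals from limma, grouped by the known role of the enzymes. The 11 genes higher past the adjusted threshold lie in the CYP1, CYP2, CYP4, CYP20 and CYP21 families, the 2 lower ones are carboxylesterases, and Cyp1a1 and Cyp26b1 have the widest intervals.

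The heart identity of the samples and the presence of other cells were checked with marker genes. Counts of called genes in these and all later lists stand beside 10.8% higher and 9.57% lower among all tested probes. Of 10 cardiomyocyte genes, 9 were well above background on all 6 arrays, and the summed relative intensity of the 10 was 5370 to 5660 in sham and 4930 to 5030 in tail-suspended hearts. Of 19 hepatocyte genes, 8 were well above background on no array, among them albumin (Alb), Apoa1 and the fibrinogen genes Fga, Fgb and Fgg, and 3 of the 10 tested were higher in tail-suspension, namely Ahsg, Ttr and haptoglobin (Hp), the last with a log2 fold change of 4.04 ± 0.52 (SE). The summed relative intensity of the hepatocyte list was 16.9 to 18.8 in sham and 23.3 to 39.7 in tail-suspension. The adipocyte list, with 2 of 8 genes tested and none called, summed to 150 to 168 in sham and 176 to 194 in tail-suspension, and leptin was well above background on no array. Macrophage markers gave 1 higher of 8 tested (5 without tail-suspension replicate 2 and none without tail-suspension replicate 1 or 3) and sums of 34.7 to 46.8 against 40.7 to 65.2. Endothelial markers gave 3 lower of 7 (none without sham replicate 1 or 2) and sums of 50.5 to 53.9 against 39 to 47.8. Fibroblast markers gave 1 lower of 8 and sums of 279 to 296 against 276 to 349. That count was 3 without tail-suspension replicate 3 and none without sham replicate 2 or tail-suspension replicate 1. The median log2 fold change of the fibroblast markers was -0.634, so their sums did not follow the median marker. Markers of lung epithelium (1 tested) and adrenal cortex (3 tested) gave no call, those of brown adipocytes and kidney tubule 1 lower of 3 each. The part of these cell types in the P450 and carboxylesterase values was not tested. In whole hearts, more cells of a type and more RNA per cell cannot be told apart.

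The CYP1 family, which oxidizes polycyclic hydrocarbons and estrogens and is induced through the aryl hydrocarbon receptor, had 3 genes, of which 2 were tested and 1 rose. Cyp1b1 had a relative intensity of 0.502, 0.489 and 0.483 in sham hearts and of 2.56, 1.6 and 3.08 in tail-suspended hearts. The sham arrays were nearly level, all 3 tail-suspension arrays stood far above them, and the groups did not overlap. The log2 fold change was 2.24 ± 0.23 (SE, adjusted p = 0.00331), a 4.74-fold rise. Cyp1a1, the classic target of the same receptor, measured 1.15, 0.211 and 0.127 in sham and 0.992, 0.325 and 3.23 in tail-suspension. The groups overlapped, since sham replicate 1 exceeded both tail-suspension replicates 1 and 2. Its log2 fold change of 1.69 had a 95% interval from -0.83 to 4.21 and did not pass the threshold (adjusted p = 0.282). Cyp1a2 was well above background on no array.

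Of 10 other genes known to answer to this receptor, 9 were tested, 3 rose and none fell. The receptor's repressor Ahrr measured 0.503, 0.548 and 0.809 in sham and 1.69, 1.06 and 1.34 in tail-suspension (log2 fold change 1.14 ± 0.24 SE, adjusted p = 0.0221). The glutathione transferase Gstm1 rose by 0.72 on the log2 scale (adjusted p = 0.00459) and the glucuronosyl transferase Ugt1a6b by 1.40 (adjusted p = 0.0311). The other 6 had log2 fold changes short of the threshold, and the median of the 9 was 0.11. Leaving out sham replicate 1, sham replicate 2, tail-suspension replicate 1 or tail-suspension replicate 3 left 1 of the 3 past the threshold, and Gstm1 alone passed in all 6 such fits, against 2 for Ahrr and 1 for Ugt1a6b. The receptor Ahr itself measured 1.61, 1.67 and 1.42 in sham and 1.98, 1.95 and 1.71 in tail-suspension, and its log2 fold change of 0.26 ± 0.11 (SE) did not pass (adjusted p = 0.124). It was named here after its value was seen.

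The drug-oxidizing CYP2A, 2B, 2D, 2E, 2F, 2G and 2T genes numbered 21, of which 7 were tested and 4 rose. Cyp2b10, the main phenobarbital-inducible P450 of mouse liver, measured 0.504, 0.924 and 0.325 in sham and 2.76, 2.38 and 2.51 in tail-suspension. The sham arrays spread more widely than the tail-suspension arrays, which were close together, and the groups did not overlap. The log2 fold change was 2.26 ± 0.35 (SE, adjusted p = 0.0101). The other 4 Cyp2b genes on the array were well above background on no array.

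Cyp2d genes, whose human relative CYP2D6 oxidizes many drugs, had 9 genes on chromosome 15, with probes between 82204377 and 82620634 in mm9, a span of 416 kb. In 4 of them the probe could be tested and in 3 it rose. Cyp2d11 had relative intensities of 2.94, 2.55 and 2.77 in sham and 5, 4.49 and 4.6 in tail-suspension. Cyp2d12 measured 0.336, 0.271 and 0.289 in sham and 0.653, 0.569 and 0.545 in tail-suspension. Cyp2d22 measured 0.206, 0.205 and 0.197 in sham and 0.384, 0.381 and 0.354 in tail-suspension. In all 3 genes the arrays of a group lay close together and the groups were well apart, with log2 fold changes of 0.77 ± 0.10 for Cyp2d11 (SE, adjusted p = 0.00541), 0.98 ± 0.12 for Cyp2d12 (adjusted p = 0.00535) and 0.88 ± 0.08 for Cyp2d22 (adjusted p = 0.00273). The fourth, Cyp2d26, named after its value was seen, ran the other way without passing, at 0.164, 0.155 and 0.133 in sham and 0.112, 0.0948 and 0.121 in tail-suspension (log2 fold change -0.46 ± 0.13 SE, adjusted p = 0.0519). Cyp2d genes are close relatives, and whether a probe also binds transcripts of another Cyp2d gene was not checked. The shared runs given above compare probes with probes and cannot show this, so the rises may not be separate readings.

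Cyp2e1, the ethanol-oxidizing P450, measured 0.0951, 0.0823 and 0.048 in sham, where 2 of 3 arrays were well above background, and 0.39, 0.109 and 0.169 in tail-suspension. The groups did not overlap, yet the tail-suspension arrays spread widely, and the log2 fold change of 1.42 ± 0.48 (SE) did not pass (adjusted p = 0.0805). Without tail-suspension replicate 2, the lowest array of its group, it passed at 1.83 (adjusted p = 0.0417). A second, dimmer probe of Cyp2e1 was well above background on 1 tail-suspension array only and was not tested. It measured 0.0329, 0.0256 and 0.0118 in sham and 0.127, 0.0114 and 0.0388 in tail-suspension, with overlapping groups. The adipocyte marker Cfd, which shares with Cyp2e1 a strong expression in fat, was named here after its value was seen. Cfd measured 0.245, 0.086 and 0.0121 in sham and 2.03, 0.184 and 0.284 in tail-suspension. Its highest and lowest arrays were those of the chosen probe of Cyp2e1. The only other tested adipocyte marker, Fabp4, had log2 fold changes of 0.108 to 0.28 over 18 other settings. Cfd made up little of the adipocyte sum given above. The part of Cfd in the value of Cyp2e1 was not tested. Of 7 CYP3A genes, the main drug oxidases of liver, 6 had a chosen probe that was well above background on no array, although a second probe of Cyp3a11 was so on 1 tail-suspension array, and the other gene did not pass.

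**Figure D2:**
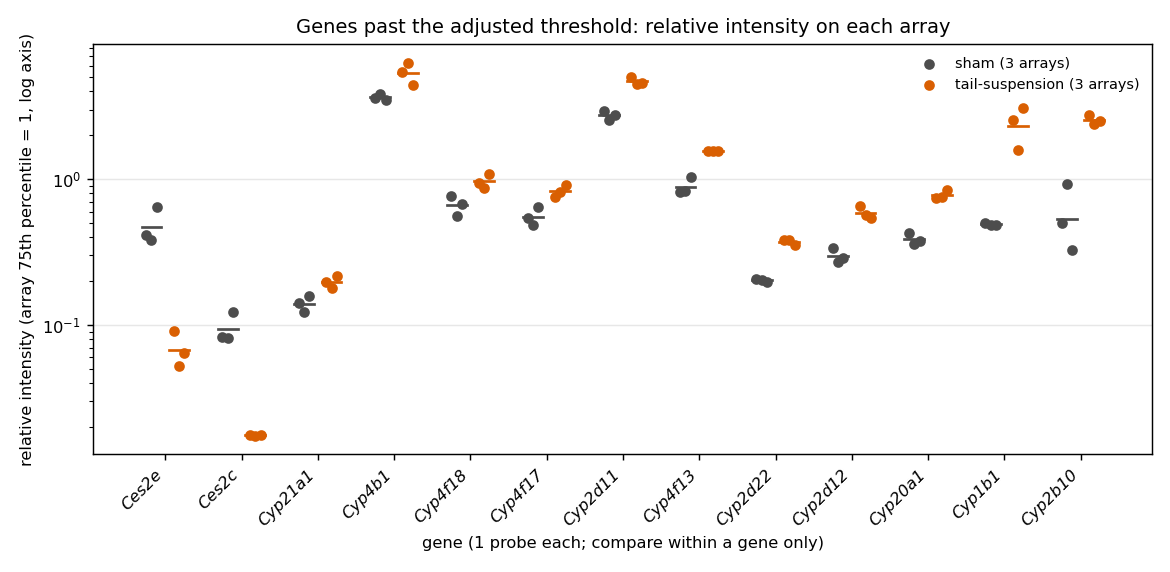
Relative intensity on each array (log axis, the 75th percentile of the array set to 1) of the 13 genes past the adjusted threshold, with 3 sham and 3 tail-suspension arrays as points and the mean of the log2 values as a bar. In each of the 13 genes the groups do not overlap, where 44% of all tested probes do not overlap either. The 13 were picked by the threshold on these same arrays, so this adds no support. Cyp2b10 has a wider spread in sham, from 0.325 to 0.924, than in tail-suspension.

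The CYP4 genes hydroxylate fatty acids, leukotrienes and prostaglandins at the end of the chain. They numbered 15, of which 9 were tested, 4 rose and none fell. Cyp4f13 measured 0.817, 0.827 and 1.03 in sham and 1.57, 1.56 and 1.57 in tail-suspension (log2 fold change 0.82 ± 0.11 SE, adjusted p = 0.00763). Its tail-suspension arrays were almost identical and stood clear of the sham arrays. Cyp4f17 measured 0.543, 0.485 and 0.648 in sham and 0.756, 0.812 and 0.912 in tail-suspension (0.57 ± 0.14, adjusted p = 0.0319). Cyp4f18, which acts on leukotriene B4 in leukocytes, measured 0.77, 0.561 and 0.672 in sham and 0.95, 0.877 and 1.09 in tail-suspension (0.55 ± 0.15, adjusted p = 0.0424), and its second probe, shifted by 1 base and therefore no independent reading, gave 0.45 (adjusted p = 0.0414). Cyp4b1, known from lung, measured 3.63, 3.86 and 3.47 in sham and 5.41, 6.31 and 4.42 in tail-suspension (0.54 ± 0.14, adjusted p = 0.0407). Cyp4f17, Cyp4f18 and Cyp4b1 lay close to the threshold, and each passed in only 1 of the 6 fits that left out an array, which was the fit without sham replicate 3 for Cyp4f17, without tail-suspension replicate 2 for Cyp4f18 and without tail-suspension replicate 3 for Cyp4b1. Cyp4f13 and Cyp4f17 lie in the Cyp4f cluster of chromosome 17 and Cyp4f18 on chromosome 8. Cyp4v3, the mouse form of a fatty acid hydroxylase of the eye, measured 0.739, 0.718 and 0.759 in sham and 0.943, 0.834 and 0.997 in tail-suspension. Its groups did not overlap, and the log2 fold change of 0.32 ± 0.10 (SE) was just outside the threshold (adjusted p = 0.0604), which it passed without tail-suspension replicate 2.

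The CYP2C and CYP2J epoxygenases numbered 17, and none of the 7 tested passed. Cyp2j6 measured 0.571, 0.531 and 0.618 in sham and 0.553, 0.487 and 0.545 in tail-suspension, with overlapping groups and a log2 fold change of -0.12 (95% interval -0.36 to 0.12, adjusted p = 0.428). Cyp2j9 measured 0.559, 0.753 and 0.643 in sham and 0.632, 0.569 and 0.462 in tail-suspension, again overlapping, at -0.23 (95% interval -0.62 to 0.15, adjusted p = 0.322). Cyp2c67 was dim, with every sham array well above background and no tail-suspension array. It measured 0.054, 0.0564 and 0.0535 in sham and 0.04, 0.054 and 0.0297 in tail-suspension, where replicate 2 was level with sham, so the groups overlapped. It did not pass (-0.45, 95% interval -0.94 to 0.05, adjusted p = 0.162), but did when tail-suspension replicate 2 was left out (adjusted p = 0.0327). Of 18 epoxide hydrolases and eicosanoid enzymes, 16 were tested, 3 rose and 3 fell, but none fell without sham replicate 1, sham replicate 3, tail-suspension replicate 1 or tail-suspension replicate 3, or with the replicate number as a block. Ephx1, which hydrolyses the epoxides that P450 enzymes make, rose from 17.3, 15.5 and 16.9 to 25.8, 29.5 and 28.9 (log2 fold change 0.76 ± 0.10 SE, adjusted p = 0.00587). The other epoxide hydrolases of the list did not rise past the threshold. Ephx3 fell (-0.58, adjusted p = 0.0301), and Ephx2 (-0.16, adjusted p = 0.643) and Ephx4 (-0.53, adjusted p = 0.243) did not pass. These other hydrolases were named after their values were seen. Ptgds, a prostaglandin D synthase, rose by 2.41 ± 0.31 (SE, adjusted p = 0.00588).

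Cyp20a1, a P450 with no settled substrate, measured 0.431, 0.361 and 0.375 in sham and 0.745, 0.758 and 0.84 in tail-suspension. Both groups were tight and far apart, with a log2 fold change of 1.01 ± 0.11 (SE, adjusted p = 0.00333). Its second probe gave a smaller rise of 0.47 (adjusted p = 0.0234). Cyp2u1, a hydroxylase of long fatty acids, measured 52.3, 49.1 and 42.6 in sham and 56.3, 44.2 and 60 in tail-suspension, with overlapping groups (0.15, 95% interval -0.20 to 0.50, adjusted p = 0.482).

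Among the enzymes of steroid hormones, Cyp11a1, Cyp11b1, Cyp11b2 and Cyp19a1, which make pregnenolone, corticosterone, aldosterone and estrogens, were well above background on no array. Cyp21a1, the hydroxylase between progesterone and corticosterone, measured 0.141, 0.123 and 0.157 in sham and 0.198, 0.179 and 0.216 in tail-suspension (log2 fold change 0.49 ± 0.12 SE, adjusted p = 0.037). Its other probe went the opposite way, from 0.0756, 0.0787 and 0.0755 to 0.0516, 0.0335 and 0.0417 (-0.88, adjusted p = 0.0156). The 2 probes disagree, so the gene has no settled direction. The rise of the brighter probe also held in only 2 of the 6 fits that left out an array, those without sham replicate 3 and without tail-suspension replicate 2. Of 19 other genes of the steroid pathway, 12 were tested, none rose and 3 fell, with 1 fall without sham replicate 1, sham replicate 2 or any tail-suspension replicate, and 2 rises without tail-suspension replicate 2.

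None of the 4 tested genes of sterol and bile acid oxidation passed. Cyp27a1, the mitochondrial sterol hydroxylase, measured 0.473, 0.382 and 0.322 in sham and 0.502, 0.624 and 0.688 in tail-suspension. Its groups did not overlap, but sham replicate 1 and tail-suspension replicate 1 were close, and the log2 fold change of 0.63 ± 0.18 (SE) just missed the threshold (adjusted p = 0.0513). Cyp7b1, an oxysterol hydroxylase, measured 0.159, 0.158 and 0.161 in sham and 0.186, 0.156 and 0.185 in tail-suspension, where replicate 2 was level with the sham arrays (0.14, 95% interval -0.10 to 0.38, adjusted p = 0.36). Cyp7a1 and Cyp8b1, the liver enzymes of bile acid synthesis, were well above background on no array. Of 24 genes of sterol synthesis, all tested, 6 fell and none rose, and the median of the 24 was -0.24 on the log2 scale. Among them, Cyp51 is a P450 whose name lies outside the naming rule used here, and it did not pass. The count of 6 was 1 without sham replicate 2, 2 without sham replicate 1, sham replicate 3 or tail-suspension replicate 3, and 3 without tail-suspension replicate 1 or with the replicate number as a block.

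Retinoic acid is removed by CYP26 enzymes and vitamin D is activated by Cyp2r1 and Cyp27b1. Cyp26b1 measured 55.6, 5.04 and 2.79 in sham and 4.37, 6.33 and 4.14 in tail-suspension. A single array, sham replicate 1, stood far above all others, and the remaining 5 overlapped. The log2 fold change was -0.92 with a 95% interval from -3.40 to 1.55 (adjusted p = 0.547), and without sham replicate 1 it was 0.37. Cyp2r1 measured 3.05, 2.03 and 2.39 in sham and 1.95, 2.15 and 1.52 in tail-suspension, with overlap and a log2 fold change of -0.40 (95% interval -0.86 to 0.05, adjusted p = 0.17). Cyp26a1, Cyp26c1, Cyp24a1 and Cyp27b1 were well above background on no array.

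**Figure D3:**
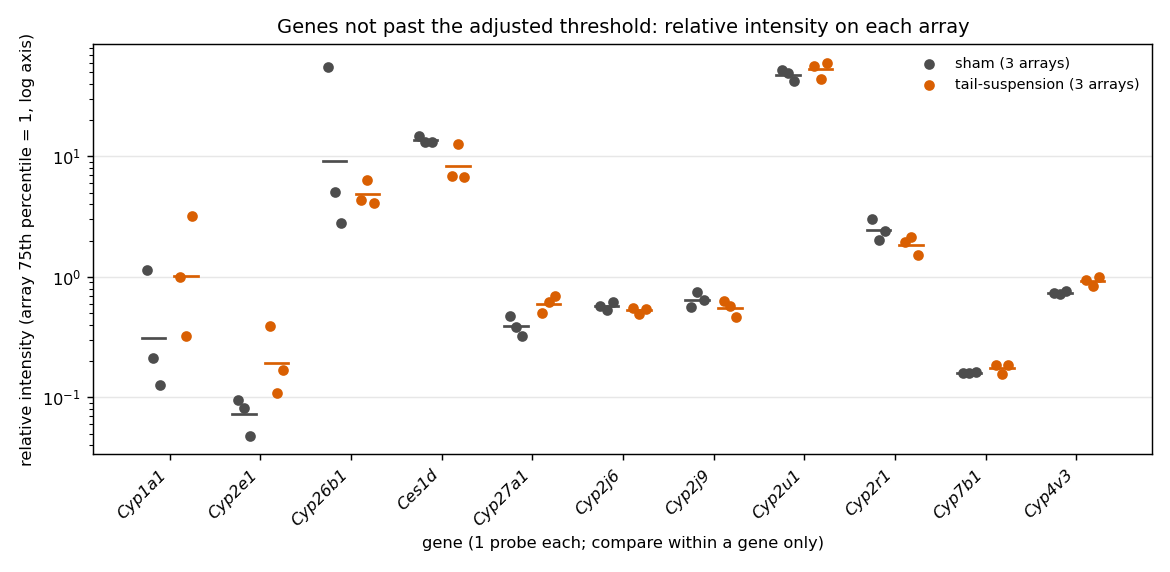
Relative intensity on each array (log axis, the 75th percentile of the array set to 1) of 11 genes that did not pass the adjusted threshold, with 3 sham and 3 tail-suspension arrays as points and the mean of the log2 values as a bar. Cyp26b1 has 1 sham array at 55.6 beside 5.04 and 2.79, Cyp1a1 spreads widely in both groups, and the groups of Cyp2e1, Cyp27a1, Cyp4v3 and Ces1d do not overlap.

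All 19 carboxylesterase genes lie on chromosome 8, and 5 of them were tested. Ces2c and Ces2e, enzymes of the CES2 family known from intestine and liver, both fell. Ces2e measured 0.414, 0.382 and 0.649 in sham and 0.0916, 0.0521 and 0.0643 in tail-suspension, where 2 of 3 arrays were well above background. The lowest sham array, at 0.382, stood far above the highest tail-suspension array, at 0.0916, and the log2 fold change was -2.80 ± 0.27 (SE, adjusted p = 0.00283). Ces2c measured 0.0831, 0.0815 and 0.123 in sham and 0.0175, 0.0174 and 0.0177 in tail-suspension. No tail-suspension array was well above background, so under the main processing the fall has only a bound, at least 2.05-fold lower. The adjusted p of 0.0017 in limma (fitted log2 means -3.41 and -5.84) rests on tail-suspension values near the floor, which do not show the spread between mice. Both genes entered the test through their sham arrays only. With normexp background correction (offset 50) the fitted log2 fold changes shrank to -1.46 for Ces2e and -0.71 for Ces2c, and both still passed. The value for Ces2c is smaller than the bound, so the bound depends on the background correction. The other probes of these genes, 2 for Ces2c and 1 for Ces2e, were too dim to be tested. The probes of Ces2c and Ces2e lie 80.3 kb apart within a group of 7 Ces2 genes that spans 279 kb, in which 3 were tested and 2 fell, the third being Ces2g, which did not pass.

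Ces1d, which hydrolyses triacylglycerol in liver and fat, measured 14.7, 13.1 and 13.2 in sham and 6.93, 12.6 and 6.7 in tail-suspension. Tail-suspension replicate 2 lay just below the sham arrays, and the other 2 lay far below them. The log2 fold change of -0.70 ± 0.24 (SE) did not pass (adjusted p = 0.0857), and it passed without tail-suspension replicate 2 (adjusted p = 0.00522). Ces1f was well above background on no array and Ces1g on 1 array only, tail-suspension replicate 3 at 0.238, beside at most 0.0104 on the other 5. Of 18 other lipid and ester hydrolases, 14 were tested, 2 rose and 2 fell, with 0 and 1 without sham replicate 2, and 1 and 1 without tail-suspension replicate 3.

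Genes that serve the P450 enzymes were counted from lists that were chosen with earlier results of these data known. Of all tested probes, 10.8% were higher and 9.57% lower, and a count near these shares is no result about a list. Leaving out an array also lowered the number of calls over all probes. Of 12 electron donors and their helpers, 11 were tested, 3 rose and none fell. P450 oxidoreductase (Por) measured 7.23, 6.49 and 5.77 in sham and 9.97, 7.96 and 10.2 in tail-suspension (log2 fold change 0.53 ± 0.14 SE, adjusted p = 0.0403), and the heme-binding partners Pgrmc1 and Pgrmc2 rose by 0.36 (adjusted p = 0.0459) and 0.38 (adjusted p = 0.0425). All 3 lay close to the threshold, and each passed in 1 of the 6 fits that left out an array, without tail-suspension replicate 2 for Por and Pgrmc2 and without sham replicate 3 for Pgrmc1. None passed with the replicate number as a block. Heme enzymes gave 1 rise and 2 falls among 13 tested. Heme oxygenase (Hmox1), which breaks heme down, rose by 0.90 (adjusted p = 0.0223), while Uros and Fech, enzymes of heme synthesis, fell by 0.57 (adjusted p = 0.0264) and 0.47 (adjusted p = 0.0477) on the log2 scale. None of the 13 passed without sham replicate 1, sham replicate 2 or tail-suspension replicate 3, and 1 fell and none rose with the replicate number as a block. Of 34 transcription factors known to regulate P450 genes, 30 were tested, 5 rose and 2 fell, with Cebpb rising most, by 1.29 ± 0.25 (SE, adjusted p = 0.0185). These counts were 1 rise and 1 fall without sham replicate 2, 3 and 1 without sham replicate 1, and 2 and 0 without tail-suspension replicate 3, and Cebpb passed in 3 of the 6 fits that left out an array. Beside the P450 enzymes, flavin monooxygenases oxidize drugs at nitrogen and sulfur, and all 3 tested of 5 rose, with Fmo1 at 0.60 (adjusted p = 0.0136), Fmo2 at 2.10 (adjusted p = 0.00283) and Fmo5 at 0.89 (adjusted p = 0.0345). Fmo2 alone passed without sham replicate 2. Conjugating transferases were mostly dim, with 11 of 16 well above background on no array, and 2 of the 3 tested rose, the sulfotransferase Sult1a1 by 2.18 ± 0.13 (SE, adjusted p = 0.00144). Of 14 retinoid genes, 10 were tested, 1 rose and none fell, and that call was lost without sham replicate 1, sham replicate 2, tail-suspension replicate 1 or tail-suspension replicate 3.

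**Figure D4:**
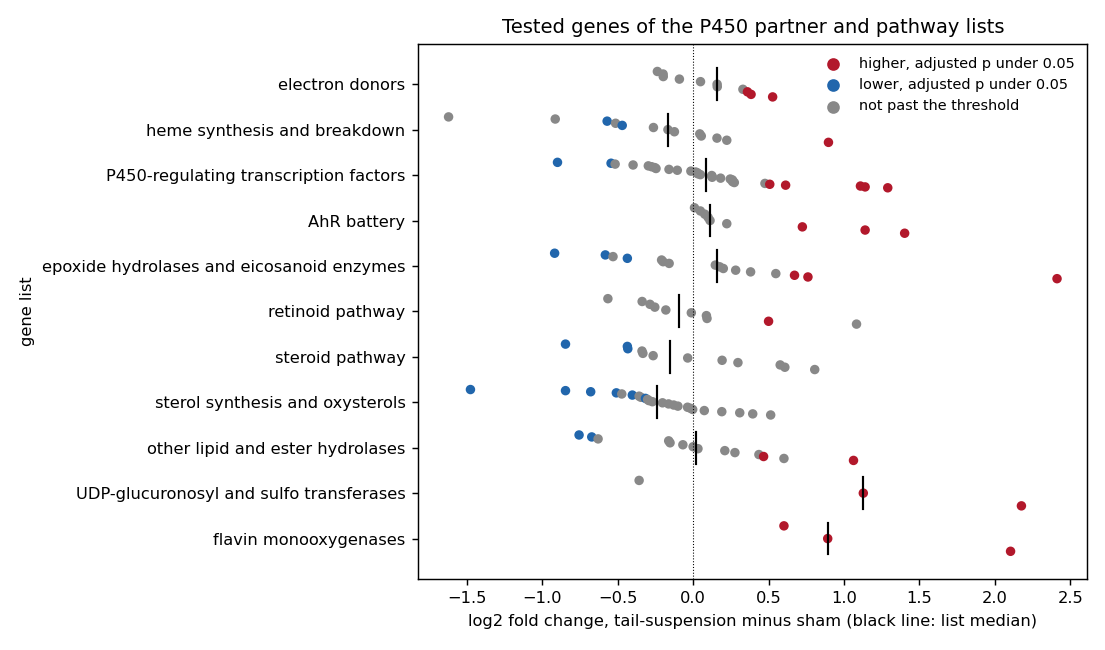
Log2 fold change, tail-suspension minus sham, of each tested gene in 11 lists of P450 partners and pathways, with genes past the adjusted threshold in red or blue and the list median as a black line. The flavin monooxygenases, with all 3 tested genes higher, have a median of 0.89, and sterol synthesis, with 6 of 24 lower, a median of -0.24.

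The arrays shared 1 slide, the sham arrays and tail-suspension replicate 1 in its first row and tail-suspension replicates 2 and 3 in its second, so row and group were partly confounded. With the row as a block, the fold change rests on tail-suspension replicate 1 against the sham arrays. Under this block 5 of the 13 genes passed, namely Cyp1b1 (2.38), Cyp2d12 (1.13), Cyp2d22 (0.92), Ces2c (-2.43) and Ces2e (-2.36). Cyp2b10 kept a log2 fold change of 2.37 but did not pass (adjusted p = 0.0951). No gene of the lists of electron donors, receptor targets, heme enzymes, transcription factors or sterol synthesis passed under the block, whereas Fmo2, Sult1a1 and Hp did. Far fewer of all tested probes passed under the block as well, as counted in the closing section. The loss of calls was therefore not particular to these lists.

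**Figure D5:**
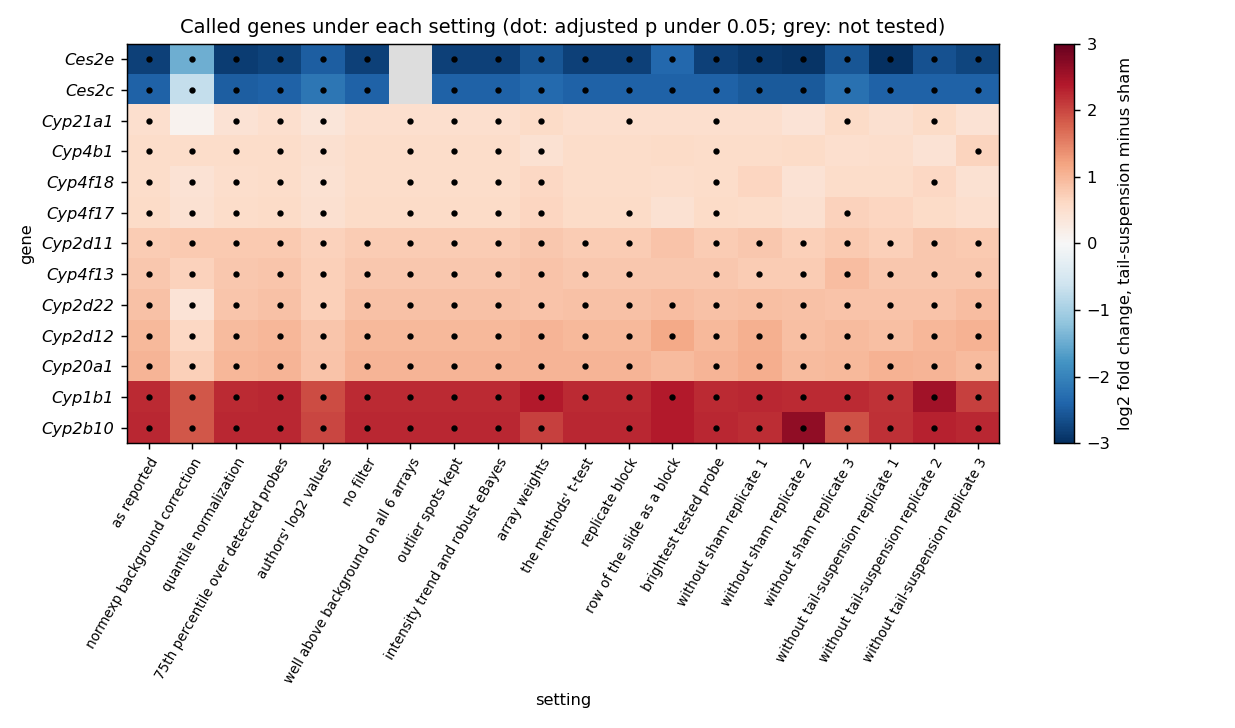
Log2 fold change (colour, tail-suspension minus sham) of the 13 called genes as reported and under 19 other settings, with a dot where the adjusted p is under 0.05 and grey where the gene was not tested. Cyp1b1, Cyp2d12 and Cyp2d22 hold under each setting, and Cyp21a1, Cyp4b1, Cyp4f17 and Cyp4f18 are lost under 8 or 9 of them. Ces2c and Ces2e also pass wherever they were tested, but they entered the test through their sham arrays only. The tail-suspension values of Ces2c lie near the floor and do not show the spread between mice.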

How the data were processed

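RNA from hearts of 3 sham and 3 tail-suspension mice was hybridized to 1-colour Agilent arrays. Scanner files deposited by the authors hold, for each spot, a mean intensity, a background intensity and a processed intensity corrected for background by Agilent Feature Extraction 10.7.1.1, with flags for outliers and for signal well above background. A second deposited table holds log2 values of the same arrays, whose sorted columns were nearly equal, as after quantile normalization. Its normalization is not given in the sources used here.

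Here the processed intensity was divided by the 75th percentile of its array and put on the log2 scale (R 4.3.3), without control spots and the 146 to 212 outlier spots of each array. Spots of a probe were averaged, and a probe was well above background where at least 50% of its spots carried the flag, as 50.9% to 53.4% of 55681 probes did. Background correction weighs most on dim probes. The test was limma 3.58.1 (lmFit and eBayes without covariates, Benjamini-Hochberg over 28030 probes, threshold 0.05) on probes that all 3 arrays of at least 1 group showed well above background. A bound sets a dim probe at the lowest signal well above background. On data simulated for this comparison, 200 of 28002 probes were changed. Of these, 66% of changes of 1 and 97% of changes of 2 on the log2 scale were recovered, and 10 unchanged probes were called. The arrays themselves had far more called probes, so these shares are not the power of the actual test. P-values from limma set the difference between groups against the spread between these mice, moderated over all tested probes. Values near the floor, as for Ces2c, do not show that spread.

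Genes and lists were chosen with earlier results of these data known. Named are all genes past the threshold, those above background in 1 group only, the 5 largest changes short of the threshold and genes of known roles. Gene names are those of the array design, with positions on mm9. The main fit has no replicate block, because the replicate numbers are not stated to pair mice. Same-numbered arrays also did not deviate together (correlations -0.02, -0.0176 and 0.0495).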

Additional observations from a re-analysis of the deposited data

How the results depend on the processing

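The median of all tested probes shifted by less than 0.1 on the log2 scale under every normalization tried. As reported, 11 genes were higher and 2 lower, and 3023 probes higher with 2683 lower. With the methods' t-test and Benjamini-Hochberg adjustment there were 6 higher genes, 1532 higher and 1248 lower probes, and without adjustment 13 genes higher and 3 lower. A minimum of 2-fold gave 3 higher genes, 757 higher and 460 lower probes. Blocking on the slide row gave 3 higher genes, 320 higher and 177 lower probes. With the replicate block, 9 genes were higher and 2 lower, with 1714 probes higher and 1403 lower, and Cyp4b1 and Cyp4f18 were lost. With that block the lipid and ester hydrolases had 0 rises and 3 falls, the steroid list 1 rise and 1 fall, and the retinoid list no call. The labels do not say that the numbers pair mice. Without a filter, 1041 probes were higher and 790 lower, in a larger family of tests. Limited to probes above background on all 6 arrays, 1 gene was lower, since Ces2c and Ces2e were then not tested and Cyp2d26 passed. Array weights gave 4 lower genes and 4092 lower probes, with 4239 higher. Leaving out 1 array gave 7 to 11 higher and 2 to 4 lower genes, and 965 to 2931 higher and 726 to 2580 lower probes. The 7 higher genes came without sham replicate 1, without sham replicate 2 and without tail-suspension replicate 1, and the 4 lower ones without tail-suspension replicate 2, where Ces1d and Cyp2c67 joined. Normexp, quantile normalization, detected probes for the percentile, the authors' log2 values, outlier spots kept, and an intensity trend gave 11 or 12 higher and 2 or 3 lower genes. Among named genes not past the threshold, the sign turned for Cyp26b1 without sham replicate 1 (leaving out 1 array gave -1.79 to 0.37) and for Cyp7b1 with normexp (-0.054). The cause was not tested. Dim probes, such as those of Ces2c, Cyp2e1 and Cyp21a1, limit what the signal over background can show, and the log2 fold change of Cyp21a1 was 0.10 with normexp.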
